A study of Mus musculus with 2 samples.

Results

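The small nucleolar RNAs (snoRNAs), the small Cajal body RNAs (scaRNAs) and the small nucleolar RNA host genes (Snhg) were examined in E14 mouse embryonic stem cells (mESCs) after USP21 knockdown. Members were chosen by symbol: every row whose name began with Snora, Snord, Scarna or Snhg followed by a digit was taken, which gave 126 of 23889 symbols. They comprised 36 H/ACA snoRNAs (Snora), 69 C/D snoRNAs (Snord), 9 scaRNAs and 12 Snhg genes. The family was put forward with the difference between these same libraries in view, so its values are given as a description and no test was made.

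E14 is an mESC line that the sample labels derive from a 19/Ola mouse, and it was kept without feeder cells in serum medium with LIF. One library came from cells transfected with a control shRNA (shCon, genotype Normal) and 1 from cells transfected with a USP21 shRNA (shUSP21, genotype USP21 knockdown), both harvested after 3 days. The labels do not say which USP21 shRNA was used. With 1 library per group there is no replicate error for any value here, and no difference between the libraries could be set against one.

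SnoRNAs guide chemical changes of ribosomal RNA inside the nucleolus, the C/D class 2′-O-methylation through fibrillarin and the H/ACA class pseudouridylation through dyskerin, and scaRNAs do the same for spliceosomal RNAs in Cajal bodies. In mammals most of them are cut out of the introns of longer genes, so that 1 primary transcript yields both a spliced RNA and a small RNA. Some of these host genes encode ribosomal proteins or translation factors, whereas Snhg genes give spliced RNAs that are mostly not translated and that nonsense-mediated decay can remove.

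Values were FPKM, fragments scaled to transcript length and to the mapped fragments of the library, so levels of different genes were compared per length. Changes were expressed as the log2 ratio of USP21 shRNA over control shRNA after 0.1 was added to each FPKM, a scale on which low genes appear less changed than they are. Usp21 itself was 26.2 FPKM in the control library and 3.49 FPKM in the USP21 shRNA library, a log2 ratio of -2.87. All 10 mESC markers examined exceeded 1 FPKM in both libraries, and their summed FPKM was 4630 with the control and 3584 with the USP21 shRNA. Of 8 fibroblast markers, Lum was listed at 0 in both libraries, and the summed FPKM went from 20.7 to 10.3, mostly through Thy1 (17.3 and 5.29 FPKM). Pdgfra, of the same list, had 2.48 and 4.22 FPKM, and of the 4 fibroblast markers with at least 0.1 FPKM in a library 2 had positive and 2 negative ratios. The part of these marker levels in the values of the snoRNA genes was not tested. An estimate from steps in the smallest values put the control library deeper by a factor of about 1.23. Only factors with the control library at least as deep were searched, so the direction was not tested.

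Of the 114 small RNAs, 106 (93.0%) were listed at 0 in both libraries, compared with 24.8% of all symbols. The share listed at 0 in both libraries was 98.6% of the C/D snoRNAs, 86.1% of the H/ACA snoRNAs and 77.8% of the scaRNAs. Only 8 small RNAs had a value: Snora23, Snora43, Snora52, Snora74a, Snora81, Snord17, Scarna6 and Scarna13. By contrast, 11 of the 12 Snhg genes had a value in both libraries, and Snhg9 was listed at 0 in both. The summed FPKM of the small RNAs was 23.3 in the control and 285.2 in the USP21 shRNA library, whereas that of the Snhg genes was 373.0 and 323.2. Of the small RNA sum with the USP21 shRNA, 235.6 FPKM came from 2 RNAs listed at 0 in the control, Snora52 and Snora43, and without them the sums were 23.3 and 49.6 FPKM. How the libraries were selected for RNA or fragment size is not given in the sources used here, so a listing of 0 does not show whether the RNA was present in the cells.

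The sequences of 7 of the 8 small RNAs with a value are shown because the differences between the libraries rest on them. They are the transcripts of GENCODE M21 on GRCm38, written as DNA, and the lengths and positions given with them are from the same annotation. The H/ACA class is named for an ACA triplet that stands 3 bases before the 3′ end, and capitals mark it where it was found directly before the last 3 bases. Capitals in C/D type sequences mark TGATGA, the core of box C, within the first 20 bases and CTGA, box D, within the last 20 bases. Only the RNA strand was searched.
Snora52: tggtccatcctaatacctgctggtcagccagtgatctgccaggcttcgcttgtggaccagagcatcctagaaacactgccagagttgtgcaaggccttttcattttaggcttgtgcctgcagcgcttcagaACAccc
Snora43: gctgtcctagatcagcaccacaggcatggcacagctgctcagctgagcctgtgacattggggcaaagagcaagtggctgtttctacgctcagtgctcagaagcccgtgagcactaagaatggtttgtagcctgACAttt
Snora81: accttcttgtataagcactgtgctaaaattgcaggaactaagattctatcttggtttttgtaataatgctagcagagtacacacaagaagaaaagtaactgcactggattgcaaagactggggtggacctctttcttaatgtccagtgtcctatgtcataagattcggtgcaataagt
Snora23: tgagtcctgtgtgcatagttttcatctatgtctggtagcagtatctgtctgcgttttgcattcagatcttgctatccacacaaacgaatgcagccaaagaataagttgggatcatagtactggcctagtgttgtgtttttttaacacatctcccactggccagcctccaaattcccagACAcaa
Snord17: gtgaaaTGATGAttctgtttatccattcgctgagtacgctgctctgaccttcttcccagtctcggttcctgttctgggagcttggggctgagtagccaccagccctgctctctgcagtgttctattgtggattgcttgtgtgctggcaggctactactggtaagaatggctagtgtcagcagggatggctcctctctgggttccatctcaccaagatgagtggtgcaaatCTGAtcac
Scarna6: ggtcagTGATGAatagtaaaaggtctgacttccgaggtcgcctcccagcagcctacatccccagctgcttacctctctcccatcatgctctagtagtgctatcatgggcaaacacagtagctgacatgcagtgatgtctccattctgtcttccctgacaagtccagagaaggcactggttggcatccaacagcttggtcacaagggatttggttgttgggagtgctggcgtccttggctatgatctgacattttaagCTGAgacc
Scarna13: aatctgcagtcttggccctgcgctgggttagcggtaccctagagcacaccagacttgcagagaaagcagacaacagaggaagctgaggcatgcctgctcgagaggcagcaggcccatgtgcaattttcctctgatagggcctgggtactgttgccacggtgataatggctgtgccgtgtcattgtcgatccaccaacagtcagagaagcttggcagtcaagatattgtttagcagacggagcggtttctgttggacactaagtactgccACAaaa
Snora52 lies at chr7:141448803-141448939 on the plus strand and Snora43 at chr2:26637847-26637985 on the minus strand. Snora81 lies at chr16:23110756-23110933 on the plus strand, and Snora23 at chr7:110046364-110046547 on the plus strand. Snord17 occupies chr2:144265979-144266216 on the minus strand. Scarna6 occupies chr1:87784556-87784820 on the plus strand and Scarna13 chr12:105031075-105031349 on the minus strand.

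Among these, Snora81 was the H/ACA RNA without ACA at the marked place. Over the whole family the triplet stood there in 83.3% of 36 H/ACA RNAs and in none of 68 C/D RNAs. It stood there in 1.89% of 9155 other annotated transcripts under 300 bases. Transcripts annotated as snoRNA or scaRNA were left out of these others, which bears on the contrast. TGATGA and CTGA occurred together in 60.3% of the C/D RNAs, in none of the H/ACA RNAs and in 0.0983% of the other short transcripts. CTGA, with or without TGATGA, was found near the end of 97.1% of the C/D RNAs, and TGATGA, with or without CTGA, near the start of 63.2%. Of 7 scaRNAs with a sequence under 300 bases, 42.9% held both C/D motifs, as Scarna6 does, and 28.6% held the ACA, as Scarna13 does. Scarna10 and Scarna2 are longer in GENCODE and were not searched. A match of this kind is a description of letters and not a mapped box.

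The H/ACA snoRNAs held the highest small RNA values and also the values listed at 0 in only 1 library. Snora52 was listed at 0 in the control library and had 156 FPKM in the USP21 shRNA library. Snora43 was likewise listed at 0 in the control library and had 79.8 FPKM in the other. The opposite was seen for Snora23, with 4.37 FPKM in the control library and a listing of 0 in the USP21 shRNA library. No fold is given for these 3 RNAs. Snora81 had 10.001 FPKM in the control and 33.4 FPKM in the USP21 shRNA library, a log2 ratio of 1.73. Snora74a had 4.05 and 8.09 FPKM, a log2 ratio of 0.98. Of the 5 H/ACA RNAs with a value, 4 were higher in the USP21 shRNA library and 1 was lower. For Snora52, Snora43 and Snora23 the direction is set by having a value in only 1 library. Over all genes with at least 0.1 FPKM in a library, 7732 ratios were positive and 7584 negative.

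Snord17 was the only C/D snoRNA of 69 with a value, 0.843 FPKM in the control and 1.97 FPKM in the USP21 shRNA library (log2 ratio 1.14). With 238 annotated bases it is long for its class. The scaRNAs went in opposite directions. Scarna6 had 2.17 and 5.58 FPKM, a log2 ratio of 1.33, and Scarna13 had 1.87 and 0.639 FPKM, a log2 ratio of -1.42.

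**Figure D1:**
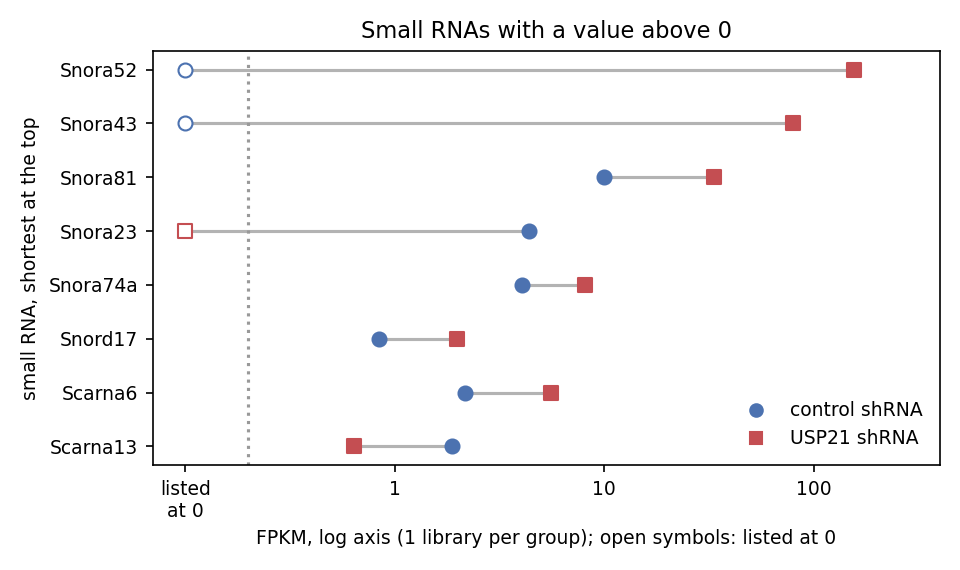
FPKM of the 8 small RNAs with a value above 0, on a log axis, in the control shRNA library (circles) and the USP21 shRNA library (squares), ordered by annotated length with the shortest at the top; open symbols left of the dotted line are listed at 0. Snora52 and Snora43 have the highest USP21 shRNA values, 156 and 79.8 FPKM, and are listed at 0 with the control, while Snora23 and Scarna13 lie lower with the USP21 shRNA.

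A gene was counted as 2-fold higher or lower where its log2 ratio reached 1 or -1 and its FPKM reached 1 in at least one library. By this rule 5 of the 8 small RNAs were higher with the USP21 shRNA, where 2.3% of 11927 genes of all kinds were higher, and 2 were lower, where 2.03% of all genes were lower. Of the 5 higher RNAs 2 were listed at 0 in the control, and of the 2 lower RNAs 1 was listed at 0 in the USP21 shRNA library. Among the 5 RNAs above 0 in both libraries, 3 were higher and 1 was lower. Snora74a lay just inside the limit (0.98) and Snord17 just past it (1.14). The median log2 ratio of the 8 RNAs was 1.23, midway between Snord17 and Scarna6. It was 0.0046 over 15316 genes with at least 0.1 FPKM in a library. The 8 include the RNAs listed at 0 in 1 library, whose ratios rest on the added 0.1. Over the 5 RNAs above 0 in both libraries the median was 1.14. Because the 8 RNAs are those with any value, they do not stand for the 114.

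The libraries differed in summed FPKM (613617 with the control and 543206 with the USP21 shRNA), and scaling both to the same sum, as TPM does, moved the median log2 ratio of genes with at least 1 FPKM in a library from 0.0031 to 0.18. After that step 4.35% of genes were 2-fold higher and 1.56% lower, and 6 small RNAs were higher, Snora74a being added. The sign of any log2 ratio smaller in size than this shift depends on the scaling.

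The small RNAs with a value were among the longer ones of the family. The 113 small RNAs with a GENCODE transcript measured 64 to 414 bases, with a median of 94 bases, whereas those with a value began at 137 bases with Snora52. As 137 bases is also the shortest transcript of any gene with a value, every shorter gene was listed at 0 in both libraries by definition. These shorter genes were 91 small RNAs and 1041 other genes, most of the latter microRNA genes. Of the 22 small RNAs of at least 137 bases, 8 had a value and 14 did not. These 14 included Snora16a, Snora21, Snora2b and Snora70 at 137 bases, Snora34 and Snora47 at 138 bases, Scarna3b at 139 bases, and Scarna3a and Snora7a at 140 bases. The others were Snord15b at 145 bases, Snord15a at 148 bases, Snora62 at 149 bases, Scarna10 at 325 bases and Scarna2 at 414 bases. RefSeq gives some of these genes shorter, 71 bases for Scarna10 and 61 bases for Scarna2. By RefSeq spans the shortest small RNA with a value measured 134 bases, and of the 12 that reached this length 4 (Snora16a, Snora78, Snord15a and Snord15b) were listed at 0.

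Within the 8 RNAs, the level in the USP21 shRNA library fell with length from Snora52 (137 bases) through Snora43 (139 bases) to Snora81 (178 bases), and the RNAs of 196 bases or more did not exceed 8.09 FPKM. In the control library Snora52 and Snora43 were listed at 0, and the highest value, 10.001 FPKM, belonged to Snora81. The number of fragments behind each value cannot be read from the files. Of the 8 genes of any kind with 137 to 200 annotated bases and a value, 4 were listed at 0 in 1 library, namely Snora52, Snora43, Snora23 and the vault RNA Vaultrc5 (0.388 FPKM in the control). Of the 7 with 201 to 300 bases and a value, 1 was, the defensin Defb25 (0.482 FPKM in the control). The part of transcript length in the differences between the libraries was not tested.

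Few other short genes had a value. Between 137 and 300 bases, 4 genes outside the family reached 1 FPKM in a library. None of them was 2-fold higher or lower, where 2.3% of all genes were higher and 2.03% lower. Rmrp, the RNA of RNase MRP, which cleaves the ribosomal RNA precursor, had 27.0 and 24.3 FPKM (log2 ratio -0.15). Snurf, the upstream reading frame of the imprinted Snurf-Snrpn transcript, had 25.5 and 41.9 FPKM (0.72). The predicted genes Gm1943 (11.8 and 7.09 FPKM) and Gm12338 (9.996 and 5.33 FPKM) had lower values with the USP21 shRNA, with log2 ratios of -0.73 and -0.89.

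**Figure D2:**
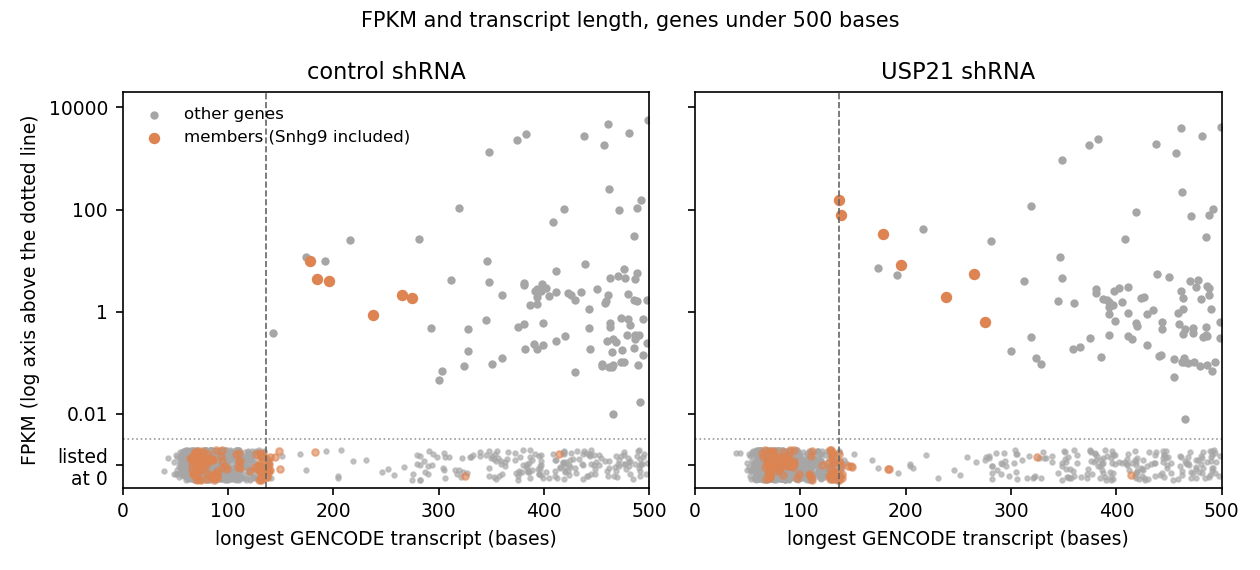
FPKM against the longest GENCODE transcript in bases for all genes under 500 bases, in the control shRNA library on the left and the USP21 shRNA library on the right; the vertical axis is logarithmic above the dotted line, genes listed at 0 are scattered below it, and the dashed line stands just under 137 bases. The dashed line was placed by the shortest transcript with a value, so by definition no gene left of it has one in either library. To the right of it 8 small RNAs have a value, among other members that are listed at 0. Snhg9, with a transcript of 183 bases, is drawn with the members.

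The Snhg genes were examined next, since they are the spliced counterparts of small RNAs. None of the 9 Snhg genes that reached 1 FPKM in a library was 2-fold higher or lower, apart from Snhg11 once both libraries were scaled to equal sums. Of all genes 2.3% were higher and 2.03% lower, so a set of 9 can hold none at that share. Of the 11 Snhg genes with a value, 9 had a negative and 2 a positive log2 ratio, with a median of -0.24, and after scaling to equal sums 6 were negative and 5 positive with a median of -0.06. Snhg1, the host of a large group of C/D snoRNAs, was the most abundant with 125.1 and 113.2 FPKM (log2 ratio -0.14, which becomes 0.03 at equal sums). Snhg5 had 73.2 and 54.6 FPKM (-0.42), and Snhg3 had 42.8 and 36.4 FPKM (-0.24). Snhg12 had 41.2 and 40.0 FPKM (-0.04, or 0.13 at equal sums).

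Snhg8 had the most negative ratio among the Snhg genes that reached 1 FPKM, with 38.0 and 21.1 FPKM (-0.84). Snhg6 had 21.9 and 16.9 FPKM (-0.37) and Snhg4 15.6 and 15.0 FPKM (-0.05, or 0.12 at equal sums). The positive ratios were those of Snhg11 and Snhg7. Snhg11, which GENCODE types as protein-coding, had 9.85 and 19.6 FPKM with a log2 ratio of 0.98, just inside the 2-fold limit, and at equal sums it passed that limit. Snhg7 had 4.05 and 5.55 FPKM (0.44). Snhg10 (0.756 and 0.397 FPKM, -0.78) and Snhg18 (0.522 and 0.379 FPKM, -0.38) stayed under 1 FPKM in both libraries.

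**Figure D3:**
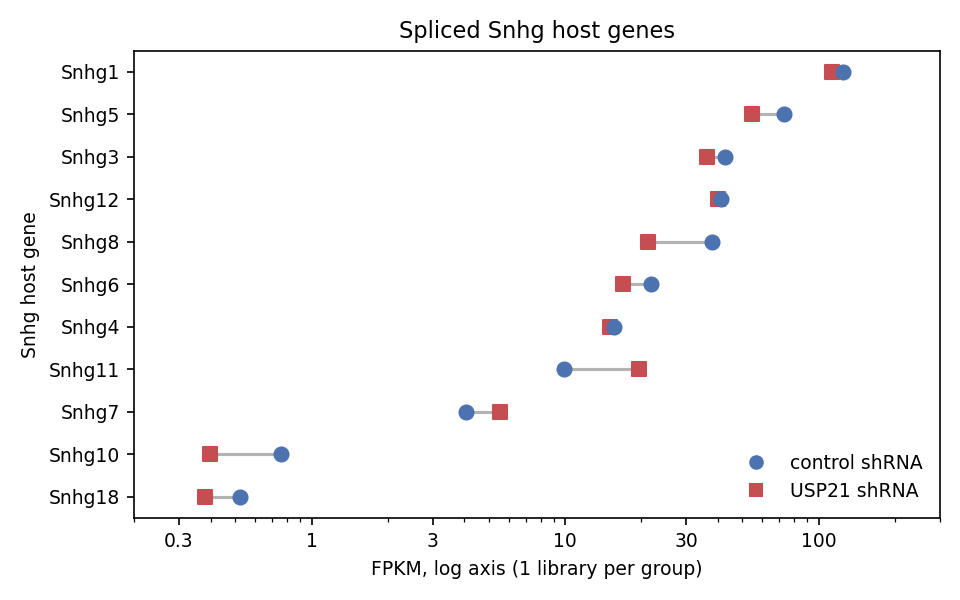
FPKM of the 11 Snhg genes with a value, on a log axis, in the control shRNA library (circles) and the USP21 shRNA library (squares). Snhg11 and Snhg7 lie higher and the other 9 lower with the USP21 shRNA. No pair is 2-fold apart among genes that reach 1 FPKM, although Snhg11 comes to be so at equal sums. Over all genes 2.3% were 2-fold higher and 2.03% lower.

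Within RefSeq, 13 small RNAs of the family lie inside 9 Snhg genes of the family, which allowed a direct comparison of both products. In Snhg7, the host had 4.05 and 5.55 FPKM while Snora43 went from a listing of 0 to 79.8 FPKM. Snora17, an H/ACA RNA of 132 bases in the same host gene, was listed at 0 in both libraries. In Snhg4, the host had a log2 ratio of -0.05 and Snora74a one of 0.98. In Snhg10, host and guest went the same way, with -0.78 for Snhg10 and -1.42 for Scarna13, and the host stayed under 1 FPKM. The 10 other small RNAs inside Snhg genes were listed at 0 in both libraries. They were Snora16a, Snora44, Snora61 and Snord99 in Snhg12, Snora17 in Snhg7, Snord22 in Snhg1, Snora24 in Snhg8, Snord87 in Snhg6, Snord123 in Snhg18 and Snora78 in Snhg9. Snora17 (chr2:26639190-26639321, minus strand) is shown because it shares the host of Snora43 and was listed at 0, and like Snora81 it has no ACA directly before its last 3 bases.
Snora17: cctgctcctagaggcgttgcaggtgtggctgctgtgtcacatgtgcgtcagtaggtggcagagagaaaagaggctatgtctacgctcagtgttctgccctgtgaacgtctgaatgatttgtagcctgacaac

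The other 5 small RNAs with a value lie in protein-coding genes, each of which was present in both libraries within a narrow range. Rplp2, a protein of the ribosomal stalk and host of Snora52, had 2752 and 2501 FPKM (log2 ratio -0.14). Eif4a2, a translation initiation helicase and host of Snora81, had 177.8 and 134.2 FPKM (-0.41), opposite in sign to its guest. Ipo7, an importin and host of Snora23, had 91.7 and 89.0 FPKM (-0.04). Snx5, a sorting nexin and host of Snord17, had 153.7 and 152.0 FPKM (-0.02). Atg16l1, an autophagy gene and host of Scarna6, had 21.1 and 26.1 FPKM (0.30). Among the 5 guests above 0 in both libraries, Scarna6 and Scarna13 had the sign of their host, whereas Snora81, Snora74a and Snord17 had positive ratios over hosts with negative ones. The ratios of Snhg4 and Snx5 are smaller than the shift that scaling to equal sums makes.

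Placement in the host bears on what a value can be. In GENCODE, Snora23, Snord17, Scarna6 and Scarna13 lie inside their host gene and overlap no exon of any of its transcripts. Snora52 lies within an exon of 1 of 6 Rplp2 transcripts, and Snora81 within an exon of 1 of 25 Eif4a2 transcripts. Snhg7 and Snhg4 are not in GENCODE M21 under these names, so placement of Snora43 and Snora74a was not compared. Whether fragments were counted by strand or once per gene is not given in the sources used here, and fragments of an unspliced host and of the small RNA inside it cannot be told apart. Snord2 shares the host of Snora81 and was listed at 0 in both libraries. It is shown (chr16:23108953-23109021, plus strand) as an RNA of the more common, short size.
Snord2: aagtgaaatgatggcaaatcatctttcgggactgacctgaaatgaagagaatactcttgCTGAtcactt

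Over the whole family, 112 of the 114 small RNAs lie inside another RefSeq gene, and 106 have a host with a row in the files, which made 80 host genes. Of 56 small RNAs whose host had at least 100 FPKM in both libraries, 53 were listed at 0 in both. Over all 114 small RNAs it was 106 (93.0%), so guests of highly expressed hosts were near the share of the family. Of the 75 hosts that reached 1 FPKM in a library, none was 2-fold higher, where 2.3% of all genes were, and 1 was lower, where 2.03% of all genes were. That host was Rabggtb, a subunit of Rab geranylgeranyl transferase (104.7 and 49.9 FPKM, log2 ratio -1.07). At equal sums Rabggtb no longer passed the limit (-0.89) and Rbmx did (1.04), so 1 of 76 hosts was higher and 0 were lower. Its guests Snord45b and Snord45c were listed at 0.

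The 22 ribosomal protein hosts were the most abundant, with a median of 1800 FPKM in the control and 1349 FPKM in the USP21 shRNA library. All 22 had a negative log2 ratio, from -0.51 for Rpl13 to -0.14 for Rplp2 with a median of -0.35, and at equal sums 21 were negative with a median of -0.18. Over all genes with at least 0.1 FPKM in a library, 7732 ratios were positive and 7584 negative. From 301 bases up, the median ratio of all genes rose with annotated length. It was -0.34 at 301 to 500 bases, -0.21 at 501 to 1000, -0.12 at 1001 to 2000 and 0.17 above 5000 bases. Shorter genes did not follow this order. The median was 0.13 at 137 to 200 bases, where 8 genes had a value, and 0.72 at 201 to 300 bases, where 7 had one. The longest transcripts of the ribosomal protein hosts measured 588 to 3183 bases with a median of 1107 bases, and those of 34 other coding hosts had a median of 3900.5 bases. The part of length in the host ratios was not tested. The 38 other coding hosts with at least 0.1 FPKM divided into 18 positive and 20 negative, median -0.03, and at equal sums into 28 and 10, median 0.15. Rbmx, an RNA-binding protein gene and host of Snord61, was highest, with 6.50 and 11.9 FPKM (0.86). The 17 non-coding hosts, 8 of which are Snhg members, had 3 positive and 14 negative ratios with a median of -0.28, and at equal sums 6 and 11 with a median of -0.10. Gas5, a growth-arrest transcript and host of Snord47, had 32.1 and 25.2 FPKM (-0.35), and Dancr, host of Snora26, had 6.50 and 4.94 FPKM (-0.39).

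**Figure D4:**
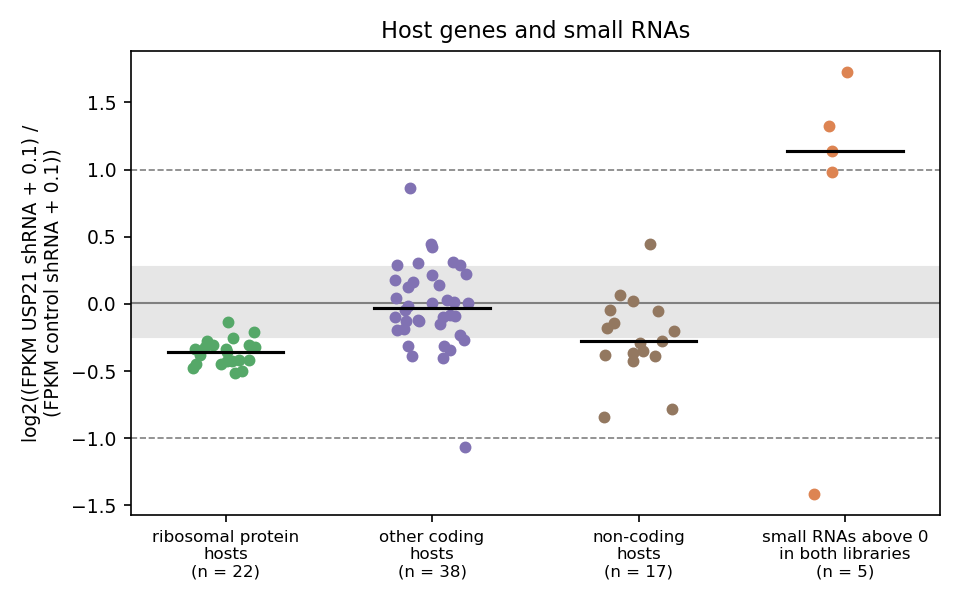
Log2 ratio of USP21 shRNA over control shRNA (FPKM + 0.1) for 22 ribosomal protein hosts, 38 other coding hosts, 17 non-coding hosts and the 5 small RNAs above 0 in both libraries; each point is a gene, short black lines are medians, the grey band spans the middle quartiles of 15316 genes (-0.25 to 0.27) and dashed lines mark 2-fold. All ribosomal protein hosts lie under 0, Rabggtb is the only host past a dashed line, and 4 of the 5 small RNAs lie past one as well; at equal sums 1 ribosomal protein host is positive, Rabggtb lies inside the lines and Rbmx past one.

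Proteins that bind and build these particles were compared as lists, and none of their genes differed 2-fold. Of all genes 2.3% were higher and 2.03% lower, so lists this short can hold none at that share. In the C/D core, Fbl, the methyltransferase fibrillarin, had 289.7 and 284.7 FPKM (log2 ratio -0.02). The scaffold genes Nop56 (197.5 and 199.6 FPKM, 0.02) and Nop58 (206.6 and 195.1 FPKM, -0.08) are themselves hosts of Snord110, Snord57, Snord11 and Snord70, all listed at 0. Nhp2l1, which binds the C/D motif directly, had 297.8 and 266.7 FPKM (-0.16).

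In the H/ACA core, Dkc1, the pseudouridine synthase dyskerin, had 95.9 and 71.98 FPKM (-0.41). The other core proteins had ratios of -0.31 for Nhp2 (462.8 and 372.3 FPKM), -0.23 for Nop10 (232.4 and 197.6 FPKM) and -0.04 for Gar1 (48.2 and 46.8 FPKM). All 4 were negative with a median of -0.27, and 3 of 4 with a median of -0.10 at equal sums. Of the 9 assembly factors 5 were positive and 4 negative with a median of 0.02. The largest differences were those of Znhit3 (-0.43), the helicase Ruvbl2 (-0.32) and Pih1d1 (0.27). Of the 7 Cajal body and nucleolar genes, 3 were positive and 4 negative with a median of -0.01. Splits at equal sums were not counted for the assembly and Cajal body lists, and the sign of the latter median depends on the scaling. Npm1, the nucleolar chaperone nucleophosmin, had 2972 and 2276 FPKM (-0.38). Wrap53, which brings scaRNAs to Cajal bodies, had 21.0 and 24.2 FPKM (0.21), and Ncl, nucleolin and host of Snora75 and Snord82, had 553.1 and 482.8 FPKM (-0.20).

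The nuclear exosome trims the ends of snoRNAs, and nonsense-mediated decay degrades many spliced Snhg RNAs. Of 12 exosome genes none differed 2-fold, where 2.3% of all genes were higher and 2.03% lower. They divided into 4 positive and 8 negative with a median of -0.09. This median is smaller in size than the shift that scaling to equal sums makes, so its sign depends on the scaling. Splits at equal sums were not counted for the exosome and decay lists. Exosc5 had 51.9 and 75.8 FPKM (0.54), the helicase Skiv2l2 had 47.8 and 61.6 FPKM (0.36), and Exosc6 had 43.4 and 34.4 FPKM (-0.34). Of 9 decay genes 6 were positive and 3 negative with a median of 0.05. Again none differed 2-fold, beside the same shares of all genes. The kinase Smg1 had 9.09 and 13.3 FPKM (0.54), Smg9 had 6.45 and 8.36 FPKM (0.37), and the helicase Upf1 had 35.7 and 29.3 FPKM (-0.29).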

How the data were processed

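Total RNA of 2 E14 libraries was sequenced. The deposited tables hold an FPKM for each symbol, and the authors' processing notes name CASAVA 1.8.2, TopHat2 2.0.14, Cufflinks 2.2.1 and the build mm9, with no role or settings. No counts were in the files, so no interval or detection limit was computed. FPKM divides by transcript length, so in a transcript close to the fragment size few fragments can give a high value. The part of this in the values was not tested.

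Groups were taken from the sample titles. Log2 ratios used a pseudocount of 0.1 FPKM, medians used genes with at least 0.1 FPKM in a library, and 2-fold counts required 1 FPKM in a library. Lengths, positions and sequences came from GENCODE M21 (GRCm38), in which 22602 symbols were found, 113 of the 114 small RNAs among them. Hosts were the RefSeq genes (GRCm38.p6) that contain a small RNA, and 6 containing genes that GENCODE places on the other strand were dropped. Genes named were Usp21, all Snhg genes, all small RNAs with at least 1 FPKM in a library, their hosts, the core particle proteins and the 3 largest changes per list, not all of which are given. One gene of the decay list is not reported here. Other genes, such as further hosts and short genes, were named after their values were seen. The members and lists were chosen with earlier results of these data known. Alternatives were pseudocounts of 1 and 0.01, no filter, an FPKM floor of 5, equal sums (TPM), a median of 0 and only members above 0 in both libraries. Scripts were tested on simulated data. Python 3.11.15, numpy 2.4.6, pandas 2.3.3 and matplotlib 3.10.9 were used.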

Additional observations from a re-analysis of the deposited data

How the results depend on the processing

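No replicate spread exists, so a value was counted as moved where its log2 ratio shifted by more than a factor of 1.5 or its count changed by more than that. Of 64 values of single members 63 stayed within this limit, and Scarna13 moved to -0.81 with a pseudocount of 1. These values cover only members above 0 in both libraries. Snora52, Snora43 and Snora23, whose ratios rest on the pseudocount, are not among them. Of 42 summary values 36 stayed within it. The count of small RNAs 2-fold lower, 2 in the report, was 1 with a pseudocount of 1, 0 with an FPKM floor of 5 and 1 with only members above 0 in both libraries. The count 2-fold higher, 5 in the report, was 3 with only members above 0 in both libraries, 4 with a pseudocount of 1, where Snord17 came to 0.69, and 4 with an FPKM floor of 5. Among the hosts, 1 was higher (Rbmx) and 0 lower at equal sums. Without the filter the median of the small RNAs was 0, since 106 of them are listed at 0. At equal sums (TPM) 1 Snhg gene, Snhg11, was 2-fold higher. Over all genes 274 were higher and 242 lower. These counts were 108 and 100 with a pseudocount of 1, and 555 and 199 at equal sums. No paired analysis was possible because each group has 1 library and the labels carry no replicate numbers. The depth behind the small RNA values is unknown.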

Other observations

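Of 11 other structured small RNAs looked for, 8 had a row in the files and 4 of these were listed at 0 in both libraries, the minor spliceosomal RNAs Rnu11 and Rnu12, Rnu73b and Rn4.5s. Terc, the RNA template of telomerase and an H/ACA RNA by structure, had 2.29 FPKM in the control and 1.89 FPKM in the USP21 shRNA library (log2 ratio -0.27). Rpph1, the RNA of RNase P, was listed at 0 in the control and had 0.318 FPKM in the USP21 shRNA library. All 1042 microRNA genes with an annotated length under 300 bases were listed at 0 in both libraries. Most of them are among the 1041 other genes shorter than 137 bases given above, so this is not a separate observation.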
